A study of Mus musculus with 3 samples.

Results

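Fabp4, Lpar3 and Clic6 are 3 genes outside meiosis that were picked from these arrays for a large excess over wild type in one or both knockouts, out of 16531 genes with a symbol on the array. They were measured by 3, 1 and 2 probes, all 6 of which are given below. Total RNA of male mouse gonads at embryonic day 14.5, from a mouse line labelled MCH, was hybridised to 1-colour Agilent arrays. There were 2 arrays for each of 3 genotypes: wild type (Cyp26b1+/+/Stra8+/+), Cyp26b1 knockout (Cyp26b1-/-/Stra8+/+) and double knockout (Cyp26b1-/-/Stra8-/-). Both knockouts therefore lack Cyp26b1, and the double knockout is the only group that lacks Stra8. The design describes the arrays as biological duplicates, but whether RNA was pooled over embryos is not stated, so the errors measure only the spread between arrays. The labels name no Cre driver. Each genotype occupied a slide of its own, and the slide of the Cyp26b1 knockout was scanned on another day than the other 2 slides, so genotype and slide cannot be told apart in any comparison.

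Cyp26b1 degrades retinoic acid and shields germ cells of the fetal testis from it, and Stra8 is a retinoic acid-responsive factor that germ cells need for meiosis. The comparison of the knockouts with wild type addresses what follows the loss of Cyp26b1, and the comparison of the knockouts with each other addresses what differs when Stra8 is also lost. Fabp4 encodes a small cytosolic protein that carries fatty acids, best known from adipocytes, macrophages and capillary endothelium, and PPAR-gamma is a known activator of its gene. Lpar3 encodes a G protein-coupled receptor for the signalling lipid lysophosphatidic acid (LPA), which couples mainly to Gq and Gi proteins. Clic6 belongs to the chloride intracellular channel family, whose members exist in soluble and membrane forms and resemble omega-class glutathione transferases.

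Of the 3 genes, RefSeq's table of promoter windows held that of Lpar3 (build GRCm38.p6, plus strand). It is shown because Lpar3 stood high in both knockouts that lack a retinoic acid-degrading enzyme, and retinoic acid receptors bind short repeated hexamers in DNA. The 250 bases before the annotated start, chr3:146220711-146220960, read 5′ to 3′, all in lower case since no searched motif was found to be marked in capitals.

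Lpar3 promoter: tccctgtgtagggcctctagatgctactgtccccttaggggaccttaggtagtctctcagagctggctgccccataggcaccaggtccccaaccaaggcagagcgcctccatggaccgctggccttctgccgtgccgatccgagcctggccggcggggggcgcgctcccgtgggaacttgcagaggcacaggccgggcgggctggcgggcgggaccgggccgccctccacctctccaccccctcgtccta

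The full window of 300 bases, with 50 bases after the start, was 70.3% G or C and held 25 CpG dinucleotides. Across 32851 promoter windows of that length the medians were 52.7% and 7, so the Lpar3 window was GC-rich: 90.9% of windows had a lower GC content and 81.6% had fewer CpGs. Both strands were searched for 4 hexamers that nuclear receptors bind. AGGTCA occurs in 16.3% of all windows, AGTTCA in 14%, GGGTCA in 13.7% and GGTTCA in 10.4%, and the Lpar3 window had 0 matches to each, whereas 43.7% of windows held at least 1 of them. Direct repeats of any of these hexamers, spaced by 1, 2 or 5 bases (DR1, DR2 and DR5), occur in 0.222%, 0.268% and 0.0974% of windows and had 0 matches in Lpar3. The pattern CNCCTCAG, found in 7.94% of windows, and TATAAA, found in 13.6%, were also unmatched. These counts say only that the letters are not in this window.

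Between duplicates Pearson's r was 0.994 to 0.996 over the 18972 features above background on every array, and their 75th-percentile signals ran from 973 to 1494. Levels below are log2 signals relative to the 75th percentile of the same array, so 0 is the brightness of that percentile, and levels of different probes are not comparable. The single Cyp26b1 probe stood at 3.93 ± 0.14 (SD, n = 2) in wild type, 4.05 ± 0.31 in Cyp26b1 knockout and 4.01 ± 0.14 in double knockout. The single Stra8 probe stood at 3.07 ± 0.94, 7.11 ± 0.11 and 6.06 ± 0.11. Neither targeted gene was therefore low in the arrays labelled as its knockout. The position of either probe within its gene's deletion is not given here, and a probe outside a deletion does not check the label. All groups below are named as labelled.

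Fabp4 was measurable in wild type and far brighter in both knockouts. Its brightest probe stood at -2.03 and -2.12 on the wild-type arrays, at 2.61 and 2.43 on the Cyp26b1 knockout arrays and at 3.16 and 2.98 on the double knockout arrays. The 3 groups did not overlap, and the duplicates of each lay close together. The mean exceeded wild type by 4.60 ± 0.11 (SE of the fit) in Cyp26b1 knockout, 24.2-fold, and by 5.15 ± 0.11 in double knockout, 35.4-fold. The next probe gave 4.64 ± 0.09 and 5.31 ± 0.09. On the dimmest probe the wild-type arrays were not well above background, so only bounds can be given: Fabp4 was at least 8.57-fold higher in Cyp26b1 knockout and at least 8.78-fold higher in double knockout. A bound sets the bright group's mean against the lowest signal well above background on the dim arrays. In this bulk tissue a change in the number of cells of a type and a change in RNA per cell cannot be told apart.

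Lpar3 was at the edge of detection in wild type and clearly measured in both knockouts. Its single probe stood at -4.90 and -5.68 on the wild-type arrays, of which only the former was well above background, at -1.58 and -1.10 on the Cyp26b1 knockout arrays, and at -0.60 and -0.48 on the double knockout arrays. Again the groups did not overlap, with the widest spread between duplicates in wild type. The mean exceeded wild type by 3.95 ± 0.27 in Cyp26b1 knockout, 15.5-fold, and by 4.75 ± 0.27 in double knockout, 27-fold. The size depended on how background was removed: with normexp correction on all spots the differences for Lpar3 were 1.18 and 1.90, and with spots marked as outliers left out of that correction they were 2.53 and 3.21. Without wild type replicate 1 they were 4.34 and 5.15, and without wild type replicate 2 they were 3.56 and 4.36.

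On its brighter probe Clic6 rose in steps over the genotypes. That probe stood at -2.86 and -2.81 in wild type, at -0.36 and 0.05 in Cyp26b1 knockout, and at 1.22 and 1.21 in double knockout. The step from wild type to Cyp26b1 knockout was 2.68 ± 0.14, 6.42-fold, and that to double knockout was 4.05 ± 0.14, 16.6-fold. The other probe was not well above background in wild type, stood at -4.34 and -3.98 in Cyp26b1 knockout and at -3.60 and -3.62 in double knockout, and bounded the excess at 3.39-fold or more and 4.96-fold or more. With normexp correction on all spots the brighter probe of Clic6 gave 1.74 and 2.97. On all 6 probes of the 3 genes, every knockout array lay above both wild-type arrays.

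**Figure D1:**
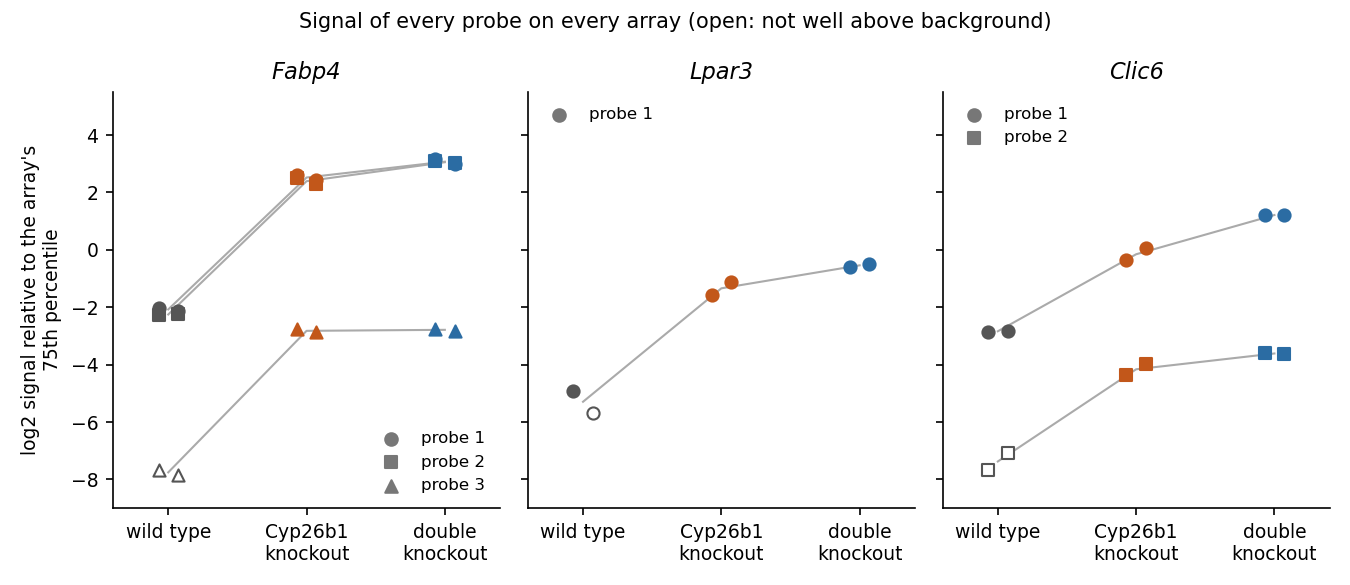
The y axis is the log2 signal relative to the array's 75th percentile and the x axis the genotype, with 1 panel per gene, 1 symbol per array and 1 symbol shape per probe. Lines join the means of 2 arrays, and open symbols were not well above background. Every probe stood higher on all knockout arrays than on the wild-type arrays, and only probe 3 of Fabp4 had overlapping knockouts.

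These differences from wild type chose the genes and are given without a test. Because of that choice most other genes had to have smaller rises, so a smaller rise in a related gene below is description only. Among 13295 named genes tested, Fabp4 had the 2nd largest rise in Cyp26b1 knockout and the largest in double knockout. Lpar3 ranked 7 and 3, and Clic6 ranked 47 and 5. Of all 21553 features tested, limma called 21.3% higher in Cyp26b1 knockout than in wild type and 5.42% higher in double knockout (Benjamini-Hochberg adjusted p under 0.05). It called 29.9% and 6.55% lower, so 51.2% and 12% in either direction. The comparisons share the wild-type arrays.

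**Figure D2:**
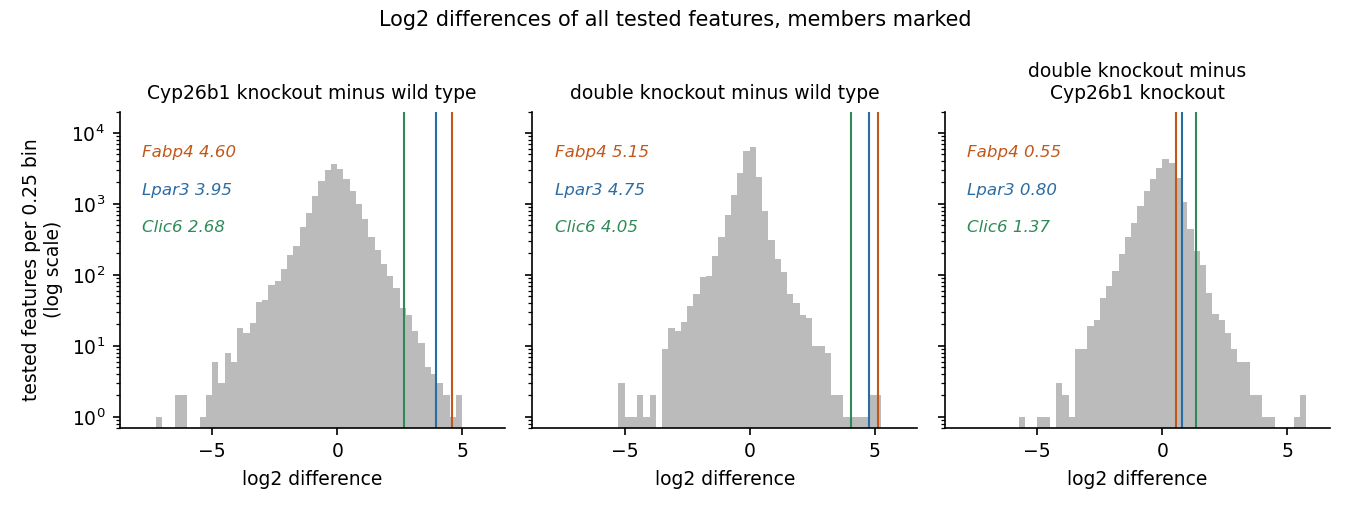
Histograms of the log2 difference (x axis) of all 21553 tested features in the 3 comparisons, with the number of features per bin on a log y axis and coloured lines at the 3 genes. Fabp4, Lpar3 and Clic6 lie in the far upper tail against wild type, at 2.68 to 5.15, and nearer the bulk between the knockouts, at 0.55 to 1.37.

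Between the knockouts all 3 genes were higher when Stra8 was also lost. This comparison is the difference of the rises over wild type by which the genes were chosen. A choice by the rise in double knockout favours a higher value here, so the adjusted p-values below are not independent of the choice. Of all features, 25.5% were called higher and 17.6% lower in this comparison, 43.1% in all, so a call alone is common. Clic6 rose by 1.37 ± 0.14, 2.58-fold (limma adjusted p = 0.000747), the 209th largest rise among named genes. Fabp4 rose by 0.55 ± 0.11, 1.47-fold (limma adjusted p = 0.00567), and ranked 2284. Lpar3 rose by 0.80 ± 0.27, 1.74-fold (limma adjusted p = 0.0474), and ranked 1023. Both double knockout arrays lay above both Cyp26b1 knockout arrays for each of these probes.

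The Clic6 and Fabp4 calls held under every tested alternative, with adjusted p up to 0.00667 and 0.0346. The Lpar3 call did not: it was lost without any 1 of the 4 knockout arrays, with limma adjusted p = 0.217 without Cyp26b1 knockout replicate 1, 0.0513 without Cyp26b1 knockout replicate 2, 0.102 without double knockout replicate 1 and 0.147 without double knockout replicate 2. It was also lost with normexp correction on all spots (0.72, adjusted p = 0.209) and with quantile normalization (0.85, adjusted p = 0.0531).

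The probes of a gene did not give the same size. Fabp4 probe 2 differed by 0.66 ± 0.09 between the knockouts, close to probe 1. Fabp4 probe 3 differed by only 0.04 ± 0.21, with arrays at -2.77 and -2.87 in Cyp26b1 knockout, then -2.76 and -2.82 in double knockout that overlapped. Clic6 probe 2 differed by 0.55 ± 0.29, less than the 1.37 of probe 1. The higher level in double knockout thus rests on the brighter probes of Fabp4 and, in its full size, on 1 probe of Clic6.

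Scaling moved this comparison for all genes. The median of all features was 0.09 in double knockout against Cyp26b1 knockout with the 75th percentile, 0.21 with array medians, and -0.21 in the authors' deposited table. The difference of Fabp4 was 0.55, 0.66 and 0.25 in the same order, that of Lpar3 0.80, 0.92 and 0.50, and that of Clic6 1.37, 1.48 and 1.06. The first 2 scalings shift every feature by a constant, and the deposited table differed from them by nearly a constant, so the distance of a gene from the median was the same in all 3 and is no independent check: 0.46 for Fabp4, 0.71 for Lpar3 and 1.27 for Clic6. With normexp correction on all spots, which does not act in that way, it was 0.27, 0.48 and 0.99. The share of higher calls among all calls was 59.2% with the 75th percentile, 70.6% with array medians and 72.7% with no filter on dim probes. Features with a mean level like that of Lpar3 (-3 to -2) had a median of 0.03, those like Clic6 (-1 to 0) 0.05 and those like Fabp4 (1 to 2) 0.17. The share of these features called higher was 18.4%, 26.8% and 37.8% in the same order, so a higher call was commoner among brighter features. The 10939 probes that were not well above background on any array had a median of 0.69, and of -0.43 for Cyp26b1 knockout against wild type.

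Other genes that stood high in both knockouts were split in this direction. Of 33 named genes whose mean exceeded wild type by 2 or more in each knockout, which include the 3 genes here, 18 had a higher mean in double knockout than in Cyp26b1 knockout. Limma called 6 of the 33 higher, 6 lower and 21 neither, and their median was 0.03. Clic6 had the largest rise of the 33, Lpar3 the third and Fabp4 the fifth. Others called higher included Rnase1 and Cidea, at 0.47 and 0.38, of which the Cidea call was lost in 9 of 17 other settings. Stra8 itself was among those called lower, at -1.06 ± 0.36 (limma adjusted p = 0.0483), although that call was lost in 8 of 17 other settings, with adjusted p up to 0.163. So was Sohlh2, a germ cell transcription factor, which was at -1.59 ± 0.24 (limma adjusted p = 0.00241). Rnase1 and Sohlh2 are named after their values were seen. Since the 33 were chosen from the same arrays, these counts are a description.

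The genes whose profile over the 6 arrays was nearest to each member were found by the root mean square difference of log2 levels after each gene was centred on its own mean. Cyp26a1, another retinoic acid-degrading enzyme and a known direct target of retinoic acid, was nearest to both Fabp4 (0.36) and Lpar3 (0.39). Its levels were -5.46 and -6.48 in wild type, at -1.36 and -0.90 in Cyp26b1 knockout, then -0.83 and -1.01 in double knockout. It shared the large step from wild type, but its knockout arrays were close together. Cyp26a1 was well above background on only 1 of the wild-type arrays. Its differences from wild type, 4.84 and 5.05, went down to 1.57 and 1.81 in other settings.

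The other nearest profiles belonged to genes of varied function. Cidea, a lipid droplet protein, was at distance 0.48 from Clic6 and 0.79 from Lpar3, with levels of -0.47 and -0.28 in wild type, at 2.15 and 2.43 in Cyp26b1 knockout, then 2.75 and 2.59 in double knockout. Rnf138rt1 was at 0.79 from Fabp4 and 0.69 from Lpar3, the meiotic cohesin gene Rec8 at 0.95 from Fabp4, and the phosphodiesterase gene Pde4c at 0.96 from Fabp4, 0.79 from Lpar3 and 0.51 from Clic6. Pllp (0.50) and Myoz2 (0.52) were also near Clic6. Neither was well above background in wild type, and with normexp correction on all spots Pllp was at -0.96 and -0.30 against wild type and Myoz2 at -0.56 in Cyp26b1 knockout. The dimmer probe of Pllp, well above background on 2 of the 6 arrays, differed from wild type by 1.92 in Cyp26b1 knockout and 0.24 in double knockout. Between the knockouts it differed by -1.68, against 0.52 on the brighter probe. Against the lowest signal well above background, the brighter probe of Pllp was at least 1.43-fold higher in Cyp26b1 knockout and at least 2.06-fold higher in double knockout. Myoz2 was at least 4.07-fold and 5.98-fold higher. No test is given for these steps, since the nearest profiles were found from the same arrays. Among themselves, Fabp4 and Lpar3 were 0.39 apart, Lpar3 and Clic6 0.57, and Fabp4 and Clic6 0.81. Likeness over 6 arrays of 3 genotypes reflects mainly the step from wild type.

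**Figure D3:**
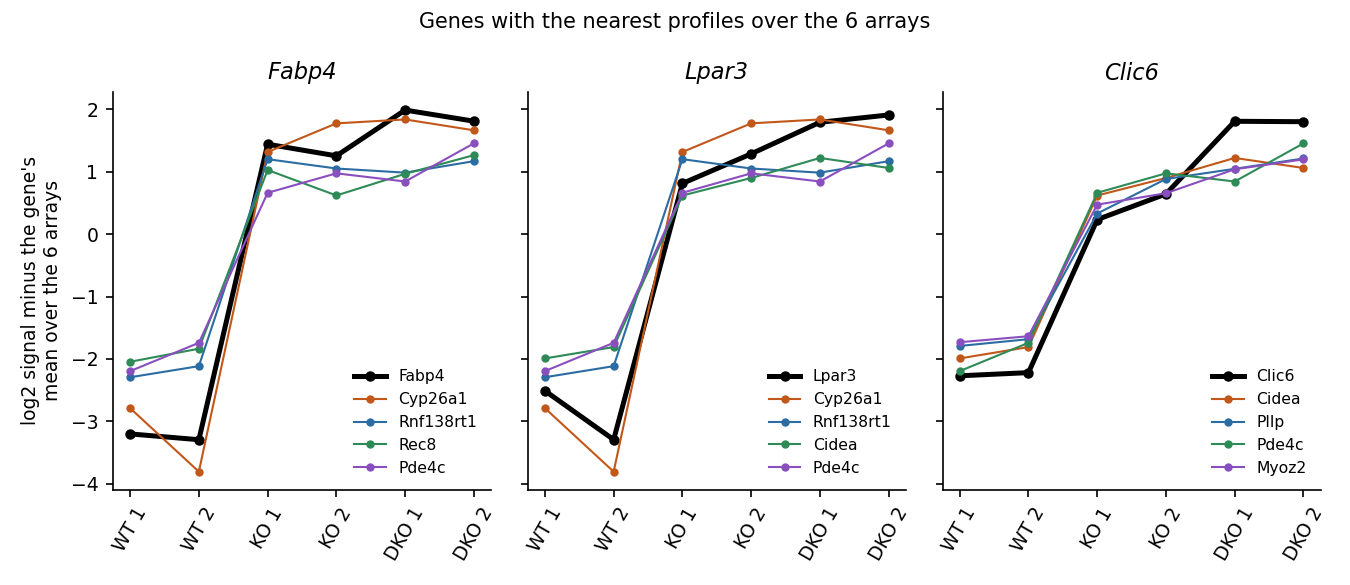
The y axis is the log2 level minus each gene's own mean over the 6 arrays, and the x axis the arrays of wild type (WT), Cyp26b1 knockout (KO) and double knockout (DKO). Each panel shows 1 gene in black with 4 of its 5 nearest profiles: all step up from wild type, and Clic6 continues upward to about 1.8 in double knockout.

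A step like that of Fabp4, which was chosen for its size, was not seen in the tested members of its family. Of 9 other fatty acid-binding protein genes, 8 had a probe and 3 passed the filter on dim signals: Fabp3, Fabp7 and Fabp9. In Cyp26b1 knockout 0 rose, 1 fell and the median was 0.05, and in double knockout 1 rose, 1 fell and the median was 0.47. Fabp9, a testis lipid-binding protein gene adjacent to Fabp4, stood at -0.63 and -0.58 in wild type, at -2.55 and -2.59 in Cyp26b1 knockout, then -1.47 and -1.86 in double knockout. It thus fell by 1.97 (SE 0.15, limma adjusted p = 0.000157) and fell by 1.06 (SE 0.15, limma adjusted p = 0.00679) in the knockouts in which Fabp4 was high.

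Fabp7, the brain-type member, rose by 0.63 ± 0.13 in double knockout (limma adjusted p = 0.0232) and differed by 0.05 ± 0.13 in Cyp26b1 knockout (adjusted p = 0.789). Fabp3, the heart-type member, passed neither test against wild type, with differences of 0.05 and 0.47. All 3 passed between the knockouts, where 25.5% of all features were called higher, with double knockout above Cyp26b1 knockout by 0.59 for Fabp7, 0.42 for Fabp3 and 0.91 for Fabp9. Of 17 other settings, 6 ended the Fabp3 call (adjusted p up to 0.315), 2 that of Fabp7 and 1 that of Fabp9.

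Retinoid-binding relatives of these proteins were measured as well. Crabp1, which binds retinoic acid in the cytosol, rose by 0.80 ± 0.16 and 1.13 ± 0.16 (limma adjusted p = 0.00563 and 0.00707). In other settings these differences went down to 0.15 and 0.54, and the calls were lost in 1 and 3 of 16 settings. Rbp2, Rbp7 and Crabp2 did not pass, with differences from -0.66 to -0.38.

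Pparg, which encodes the PPAR-gamma receptor, was called higher than wild type in Cyp26b1 knockout but not in double knockout. It stood at -2.46 and -3.02 in wild type, at -0.88 and -0.77 in Cyp26b1 knockout, then -3.08 and -3.28 in double knockout. It rose by 1.92 ± 0.20 in Cyp26b1 knockout (limma adjusted p = 0.000377), differed by -0.44 ± 0.20 in double knockout (adjusted p = 0.191), and fell by 2.36 between the knockouts (limma adjusted p = 0.000496). In double knockout both Pparg values lay below those of wild type. Whether PPAR-gamma had a part in the level of Fabp4 was not tested. Across 27 tested genes of PPAR and fatty acid handling, 10 rose and 7 fell in Cyp26b1 knockout, and 2 rose and 2 fell in double knockout, with medians of -0.01 and 0.14. The shares of all features called higher were 21.3% and 5.42%, and those called lower 29.9% and 6.55%.

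Within that list the rises of Cyp26b1 knockout included Dgat1, which makes triglyceride, at 1.54 ± 0.12 (limma adjusted p = 0.00018), and it differed by 0.17 in double knockout. Acsl1, which activates fatty acids, fell by 0.73 in Cyp26b1 knockout (limma adjusted p = 0.000466). Slc27a2, a fatty acid transport gene named after its values were seen, rose by 1.67 ± 0.19 and 2.08 ± 0.19 (limma adjusted p = 0.000492 and 0.00161) and was the list's largest rise in double knockout. No tested gene of the list was as far above wild type in either knockout as Fabp4, which the choice of Fabp4 for a large rise made likely.

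The other LPA receptors likewise had smaller differences than Lpar3, which was chosen for a large rise. Of 5, 4 had a probe and all 4 were tested, with 1 rise and 1 fall in Cyp26b1 knockout, 1 rise in double knockout, and medians of -0.19 and 0.22. The shares of all features called higher were 21.3% and 5.42%, and those called lower 29.9% and 6.55%. Lpar2 rose by 0.39 ± 0.11 and 0.59 ± 0.11 (limma adjusted p = 0.0198 and 0.0171), although its difference in Cyp26b1 knockout was -0.01 with normexp correction on all spots. Lpar6 fell by 0.37 in Cyp26b1 knockout (limma adjusted p = 0.0209), and Lpar4 and Lpar6 were higher in double knockout than in Cyp26b1 knockout by 0.61 and 0.49. On its brighter probe Lpar1 passed no test, with levels of 0.21 and 0.07, 0.08 and 0.06, and 0.10 and -0.03. Its other probe differed from wild type by 0.66 in Cyp26b1 knockout and 0.19 in double knockout, and by -0.47 between the knockouts. A dimmer probe of Lpar4 differed by -0.13 between the knockouts, against 0.61.

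Enzymes that make or break down LPA gave 3 rises and 1 fall among 6 tested genes in Cyp26b1 knockout, and 1 rise and 1 fall in double knockout. Of all features, limma called 21.3% and 5.42% higher, and 29.9% and 6.55% lower, in the same order. Enpp2 encodes autotaxin, the main producer of extracellular LPA, and its levels were -0.11 and 0.05 in wild type, at 0.48 and 1.07 in Cyp26b1 knockout, then 1.33 and 1.20 in double knockout. It rose by 0.81 ± 0.18 and 1.30 ± 0.18 (limma adjusted p = 0.00842 and 0.00655), in the same order of genotypes as Lpar3, and the knockouts differed by 0.49 ± 0.18 (adjusted p = 0.0649). Plpp3, a lipid phosphatase that degrades LPA, fell by 1.06 in Cyp26b1 knockout (limma adjusted p = 0.000193) and fell by 0.37 in double knockout (limma adjusted p = 0.0356), where the call was lost in 8 of 16 other settings, with adjusted p up to 0.899. Plpp1 and Plpp2, phosphatases of the same family, rose by 0.41 and 0.59 in Cyp26b1 knockout (limma adjusted p = 0.00529 and 0.0382), although Plpp2 was at -0.30 there with normexp correction on all spots. The other probe of Plpp1 differed by 1.11 there, so the size of its rise is not settled. Liph and Pla1a, both phospholipases, passed no test.

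In the chloride intracellular channel family 4 other members were tested, with 1 rise and 1 fall in Cyp26b1 knockout, 1 rise in double knockout, and medians of -0.02 and 0.13. Of all features, limma called 21.3% and 5.42% higher, and 29.9% and 6.55% lower, in the same order. Clic5 rose by 0.65 ± 0.17 and 0.74 ± 0.17 (limma adjusted p = 0.0159 and 0.0351), but with normexp correction on all spots its differences were -0.33 and -0.0035. Clic4 fell by 0.44 in Cyp26b1 knockout (limma adjusted p = 0.0238) on its brighter probe, while its other probe differed by 0.92 there, so its direction is not settled. Clic1 and Clic3 passed no test, with differences from -0.12 to 0.14 against wild type. None of the 4 came near the 2.68 and 4.05 of Clic6, a gene chosen for its rise, in either knockout.

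**Figure D4:**
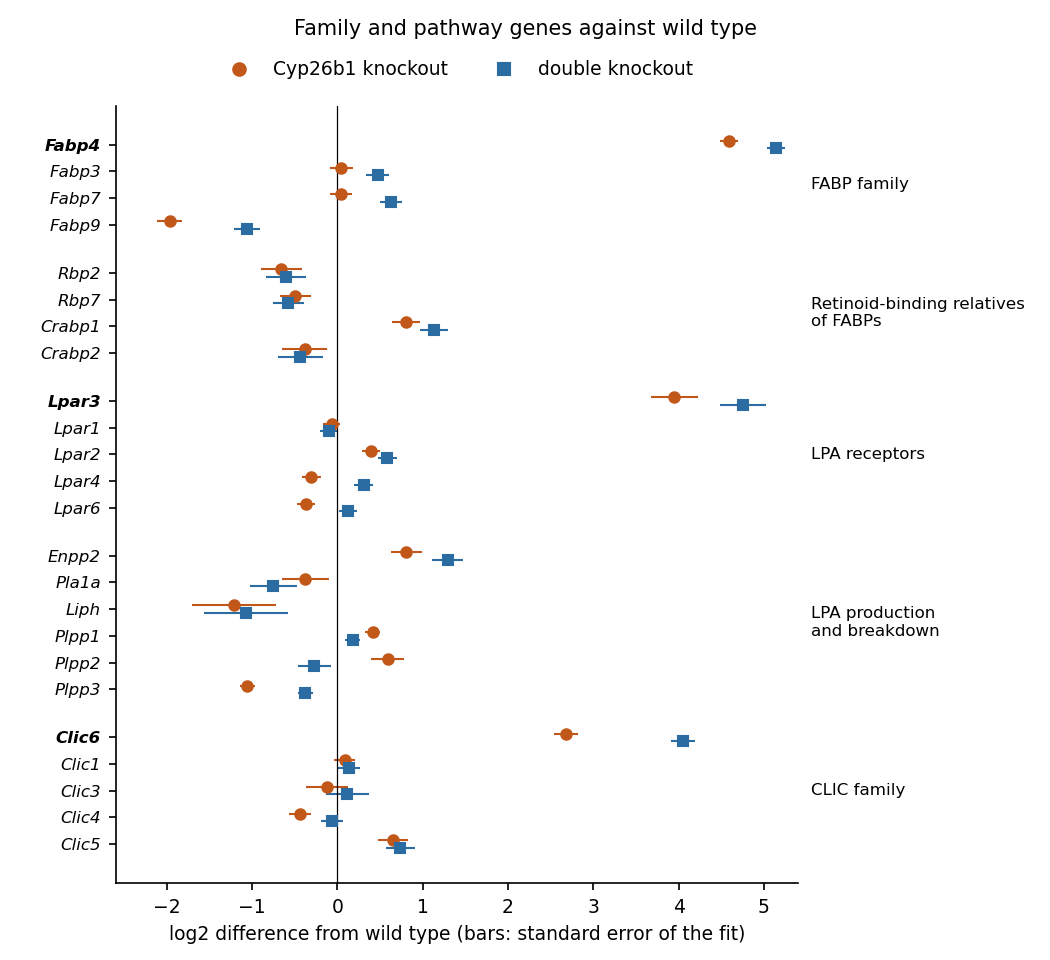
The x axis is the log2 difference from wild type with its standard error from the fit (bars), for Cyp26b1 knockout (circles) and double knockout (squares), and the y axis lists each gene by family or pathway, with Fabp4, Lpar3 and Clic6 in bold. The 3 genes, chosen for large rises, lie at 2.68 to 5.15, while the tested relatives lie between -1.97 and 1.30.

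Genes next to the members on their chromosomes were examined for a shared step, taking 3 on each side in the GRCm38.p6 annotation. Of 18 such genes 14 had a probe and 10 were tested. In Cyp26b1 knockout 1 rose and 3 fell, and in double knockout 2 rose and 2 fell. Beside Fabp4, Fabp9 fell as above and Impa1 differed from wild type by -0.19 and 0.16 without passing.

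Beside Lpar3, Ssx2ip rose by 0.71 ± 0.08 in double knockout (limma adjusted p = 0.0028), while its other probe differed by 0.32 there. Mcoln2, a channel gene not well above background outside double knockout, was at least 2.25-fold higher there than in Cyp26b1 knockout (limma adjusted p = 0.00949), a call lost in 2 of 16 other settings, with a difference down to 0.30. Beside Clic6, Runx1 rose by 0.97 ± 0.24 in double knockout (limma adjusted p = 0.0434), with -0.33 under normexp correction on all spots and the call lost in 8 of 16 other settings. Kcne1, a potassium channel subunit, fell by 0.81 and 0.69 (limma adjusted p = 0.0051 and 0.0357), and the latter call was lost in 10 of 16 other settings. Rcan1 rose by 0.76 ± 0.10 in Cyp26b1 knockout (limma adjusted p = 0.000751), while its other probe differed by 2.24 there. No neighbour tested had a step from wild type as large as its member, but the members were chosen for large steps.

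Among 9 genes known to respond to retinoic acid, 8 rose in each knockout, with medians of 1.95 and 2.46. Of all features, limma called 21.3% higher in Cyp26b1 knockout and 5.42% in double knockout. The list holds Stra8 itself and was chosen with results of these data known. Rarb, a retinoic acid receptor that is itself a target, stood at -1.52 and -1.44 in wild type, at 0.40 and 0.53 in Cyp26b1 knockout, then 0.45 and 0.40 in double knockout. Between the knockouts Stra8 and Dhrs3 were lower. The summed signal of the list, in multiples of the array's 75th percentile, was 36.6 to 44.9 in wild type, 196 to 215 in Cyp26b1 knockout and 134 to 147 in double knockout. Stra8 was the brightest gene of the list in both knockouts, at means of 7.11 and 6.06, and weighs most in this sum. The lower sum in double knockout is thus no measure of the other genes. Between the knockouts the list's median was 0.08, with 1 gene called higher, 2 lower and 6 neither.

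Fabp4 is also a marker of several cell types, whose other markers were measured beside it. Against wild type, limma called 21.3% of all features higher for Cyp26b1 knockout, whereas it called 5.42% higher for double knockout. The shares called lower were 29.9% and 6.55%. Of 17 endothelial markers 8 rose and 3 fell in Cyp26b1 knockout, with a median of 0.25. For double knockout 5 rose and 0 fell, with a median of 0.22. Compared with all features, higher calls were thus commoner among these markers, a difference that was not tested. Their summed signal was 38.9 to 41.3 in wild type, 43.2 to 43.5 in Cyp26b1 knockout and 47.5 to 50.4 in double knockout, with the mean in double knockout 1.22-fold that of wild type. Pecam1, an adhesion molecule on this list, rose by 1.58 ± 0.15 in Cyp26b1 knockout (limma adjusted p = 0.000285) and differed by 0.31 in double knockout. The 3 that fell in Cyp26b1 knockout were Cdh5, Kdr and Flt1, at -0.69, -0.52 and -0.28 (limma adjusted p = 0.0046, 0.00358 and 0.04). The 5 called higher in double knockout were Sox17, Robo4, Esam and Emcn, at 0.59, 0.59, 0.53 and 0.42, and Erg, at 1.54. Erg was not well above background in wild type, and the Esam call was lost in 4 of 16 other settings. Esam and Robo4 were also called higher in Cyp26b1 knockout, by 0.64 and 0.31, as was Nos3, by 0.87. Cdh5, Kdr, Flt1, Sox17, Robo4, Emcn and Erg are named after their values were seen. All 17 were well above background on both arrays of each knockout.

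Of 9 tested adipocyte markers 2 rose and 4 fell in Cyp26b1 knockout, and 0 rose and 2 fell in double knockout, with medians of -0.01 and 0.0002. The defining markers Lep and Adig were not well above background on any array. Adipoq, the adipocyte hormone, stood at -3.98 and -3.65 in wild type, at -5.23 and -5.14 in Cyp26b1 knockout, then -3.69 and -3.92 in double knockout. Cidec, an adipocyte lipid droplet protein that was well above background on 1 of the 2 double knockout arrays, fell by 2.24 and 1.90 (limma adjusted p = 0.000811 and 0.00827). Retn, not well above background in either knockout, was at least 4.41-fold lower in Cyp26b1 knockout and at least 2.82-fold lower in double knockout (limma adjusted p = 0.000921 and 0.0121). Cfd, which encodes the adipocyte protein adipsin and is named after its values were seen, went the other way: not well above background in wild type, it was at least 1.83-fold higher in Cyp26b1 knockout (limma adjusted p = 0.0227) and at least 2.05-fold higher in double knockout, where it did not pass (adjusted p = 0.0524). The summed signal was 6.84 to 7.59 in wild type, 6.92 to 7.42 in Cyp26b1 knockout and 7.65 to 8.29 in double knockout. Plin1, Lpl and Slc2a4 were the brightest of the list in wild type, at means of 1.90, 0.72 and 0.48, and weigh most in this sum. The sum is thus no measure of the dimmer markers.

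Of 12 macrophage markers 2 rose and 2 fell in Cyp26b1 knockout and limma called 0 in double knockout (3 at an unadjusted p under 0.05), with medians of 0.07 and 0.25. Their summed signal was 6.70 to 7.09 in wild type, 5.72 to 6.22 in Cyp26b1 knockout and 7.11 to 9.10 in double knockout. Lyz2 was the brightest of them in each genotype, at means of 1.99, 1.48 and 2.17, and weighs most in this sum. Every one of these markers had a smaller excess over wild type than Fabp4, which was chosen for a large one. Whether the proportion of any of these cells had a part in the levels of Fabp4, Lpar3 or Clic6 was not tested.

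**Figure D5:**
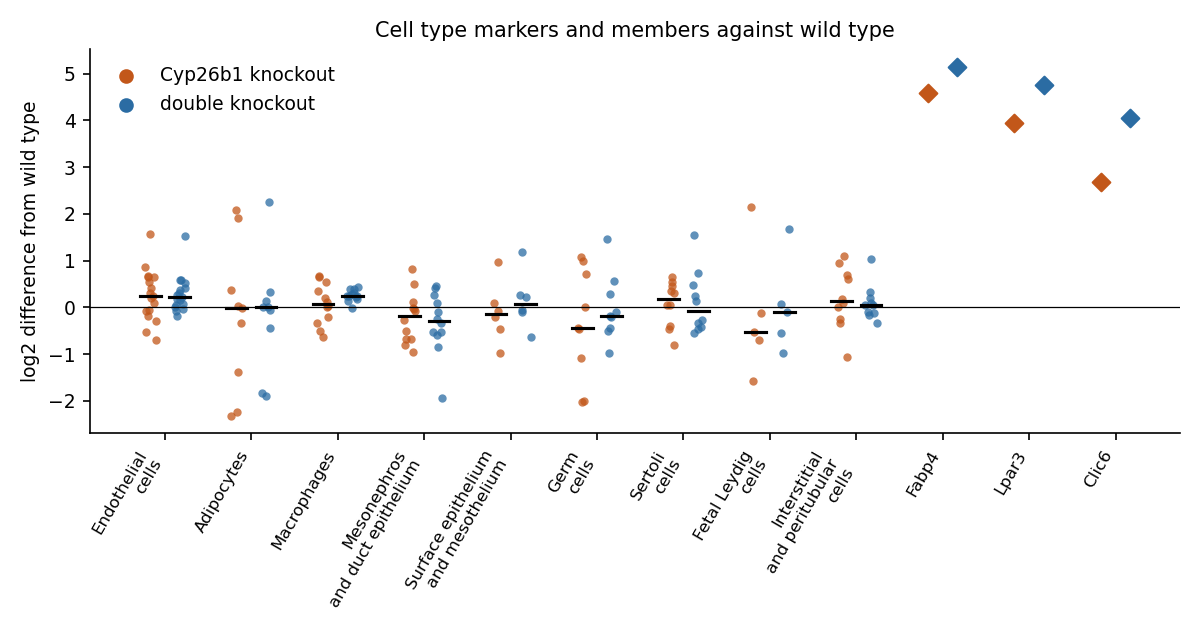
The y axis is the log2 difference from wild type for Cyp26b1 knockout and double knockout. Dots are tested markers of each cell type on the x axis, black bars their medians, and diamonds Fabp4, Lpar3 and Clic6. Markers lie between -2.32 and 2.25, and the 3 genes, chosen for large rises, lie above all of them.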

How the data were processed

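For each array a scanner file of spot intensities on a linear scale was deposited by the authors. The submitters' processing notes name Agilent Feature Extraction 9.5, whose processed signal had been background-subtracted and detrended, per the file headers. A table deposited by the authors holds 1 linear ratio per probe and genotype, whose centring is unknown here. Differences of its log2 values were shifted from those used here by 0.10 for Cyp26b1 knockout minus wild type, -0.20 for double knockout minus wild type and -0.30 for double knockout minus Cyp26b1 knockout.

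From the deposited intensities, log2 levels were taken relative to each array's 75th percentile. Spots of a probe were averaged after leaving out controls and outlier spots. Names came from accessions matched to RefSeq (GRCm38.p6): of 41174 probes 23374 matched 1 symbol, 0 several and 17800 none. A gene was represented by its brightest probe, and 21553 features well above background on both arrays of a genotype were fitted with limma 3.58.1 in R 4.3.3 (all 6 arrays, eBayes with trend, 3 residual and 4.35 prior degrees of freedom, Benjamini-Hochberg threshold 0.05, two-sided). Errors are its SEs, n = 2 per genotype, and this number of arrays limits the precision. An exact permutation test of 2 against 2 arrays cannot go below p = 0.333. SEs of further probes of the 3 genes come from the same model fitted to all probes. The fit was tested on simulated data.

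The 3 genes and all lists were chosen with earlier results of these data known. Named are all probes of the 3 genes, their families, up to 3 called genes of each other list, the 5 nearest profiles, called neighbours and the targeted genes. Some genes this takes are not reported here. Normexp (offset 50) used the spots' median foreground and background signals. Other settings were other background corrections, scalings, probe summaries, filters and variance models, a replicate block and leaving out each array. Figures were drawn with matplotlib 3.10.9.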

Additional observations from a re-analysis of the deposited data

How the results depend on the processing

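Differences of Fabp4, Lpar3 and Clic6 kept their sign under every setting that gave a value. For Cyp26b1 knockout minus wild type, normexp on all spots gave 3.89 for Fabp4, 1.18 for Lpar3 and 1.74 for Clic6, and normexp without marked spots gave 4.32, 2.53 and 2.37. Quantile normalization gave 4.71 for Fabp4, and the mean of all probes gave 4.72 for Fabp4 and 2.95 for Clic6. For double knockout minus wild type, the values were 4.41, 1.90 and 2.97 with normexp on all spots and 4.91, 3.21 and 3.65 without marked spots. Array medians gave 5.28 for Fabp4, the mean of all probes 3.91 for Clic6, and differences of the deposited value columns 4.95 for Fabp4 and 3.85 for Clic6. Between the knockouts those columns of the authors' deposited table gave 0.25 for Fabp4, 0.50 for Lpar3 and 1.06 for Clic6. Leaving out 1 array gave Lpar3 3.56 to 4.34, 4.36 to 5.15 and 0.56 to 1.04 in the 3 comparisons, and Clic6 2.48 to 2.89 in the first.

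The call of Lpar3 between the knockouts was lost with normexp on all spots (0.72), quantile normalization (0.85), the mean of all probes (0.80, adjusted p = 0.0502), no trend (0.80, adjusted p = 0.0828), no filter on dim probes (0.80, adjusted p = 0.0673) and the replicate block (0.80, adjusted p = 0.0590). It was kept with normexp without marked spots (0.68, adjusted p = 0.00805), array medians, the knockout arrays alone (adjusted p = 0.0161) and without either wild-type array. The array numbers 1 and 2 come from the files and pair nothing by the labels (correlations of same-numbered deviations 0.119 to 0.226). With the replicate block the adjusted p of the difference between the knockouts was 0.00323 for Fabp4 and 0.00109 for Clic6.

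Of 246 values of 82 other named genes, 147 were called. Of these 51 kept call and direction under every setting and 89 lost the call under at least 1, while 28 others gained one. Of the called values, 16 changed sign under at least 1 setting. With normexp on all spots, Cyp26b1 knockout minus wild type was -0.0087 for Lpar2, -0.30 for Plpp2, -0.33 for Clic5, -0.94 for S1pr4, -0.96 for Pllp and -0.56 for Myoz2. Double knockout minus wild type was then -0.0035 for Clic5, -0.30 for Pllp and -0.33 for Runx1, and S1pr4 differed by 0.21 between the knockouts. With the mean of all probes, Clic4 gave 0.24 and -0.14, and Ano6 0.031 and -0.12, for Cyp26b1 knockout minus wild type and between the knockouts, where Pdgfra gave -0.083 and Ssx2ip -0.098. The cause was not tested. A slide block could not be fitted, since each slide holds 1 genotype, and Lpar3 has no value when probes must be above background on all arrays.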

Other observations

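Further gene groups related to the 3 genes are set beside all features, of which limma called 51.2% in Cyp26b1 knockout and 12% in double knockout against wild type. Of 4 tested receptors for sphingosine 1-phosphate, a lipid signal related to LPA, 1 rose and 1 fell in Cyp26b1 knockout. In double knockout 0 rose and 1 fell. S1pr1 fell by 1.34 in Cyp26b1 knockout (SE 0.15, limma adjusted p = 0.000494) and also fell in double knockout, by 0.91 (limma adjusted p = 0.0111). S1pr4, not well above background in the other groups, was at least 1.31-fold higher in Cyp26b1 knockout than in wild type (limma adjusted p = 0.0223), but its difference was -0.94 with normexp correction on all spots. Of 5 genes of Gq and Gi proteins, 1 rose and 2 fell in Cyp26b1 knockout, with Gnai1 at -0.80 ± 0.13 (limma adjusted p = 0.0024), and Gnai3 alone rose in double knockout, by 0.33. Both omega glutathione transferases fell in Cyp26b1 knockout: Gsto2 fell by 1.06 and Gsto1 fell by 0.37 (limma adjusted p = 0.000231 and 0.00593), and limma called neither in double knockout (0 at an unadjusted p under 0.05). Of 24 other chloride channel genes tested, 4 rose and 9 fell in Cyp26b1 knockout and 2 rose and 1 fell in double knockout. Clca1, a chloride channel regulator, was well above background on 1 of the 2 Cyp26b1 knockout arrays and on neither double knockout array. It fell by 4.99 in Cyp26b1 knockout and was at least 25.0-fold lower in double knockout (limma adjusted p = 9.24e-05 and 0.000314), from wild-type levels of -1.20 and -0.79 to levels between -6.61 and -5.84 on the 4 knockout arrays. With normexp correction on all spots Clca1 was at -3.01 and -2.49, and the latter did not pass (adjusted p = 0.233).

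Markers of the gonad's own cells were present in all groups. All 10 Sertoli cell markers, 9 germ cell markers and 10 interstitial and peritubular markers were well above background on both arrays of each genotype, as were all 5 fetal Leydig cell markers with a probe. In Cyp26b1 knockout 4 Sertoli markers rose and 3 fell, 3 germ cell markers rose and 4 fell, 4 interstitial markers rose and 2 fell, and 1 Leydig marker rose and 3 fell. In double knockout 2 rose and 3 fell, 2 rose and 2 fell, 1 rose and 0 fell, and 1 rose and 1 fell, in the same order. The summed signal of germ cell markers was 113 to 116 in wild type, 69.4 to 82.2 in Cyp26b1 knockout and 91.5 to 103 in double knockout. Of 12 markers of mesonephros and duct epithelium, tissue that adjoins the gonad, 1 rose and 4 fell in Cyp26b1 knockout and 1 rose and 2 fell in double knockout. Lhx1 fell by 0.80 and, in double knockout, fell by 1.94 (limma adjusted p = 0.0199 and 0.00332). Of 6 markers of surface epithelium 1 rose and 2 fell, then 1 rose and 1 fell. Of 3 tested neural markers Elavl3 rose in Cyp26b1 knockout, by 2.08 ± 0.24 (limma adjusted p = 0.000521), and limma called none in double knockout (1 at an unadjusted p under 0.05), while the choroid plexus gene Ttr was not well above background on any array.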
